A study of Mus musculus with 9 samples.

Results

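This account compares whole pancreas of Blinc1 knockout mouse embryos (Blinc1-/-, 3 libraries) with that of wild-type embryos (Blinc1+/+, 3 libraries), all at stage E15.5 of embryonic development and on a mixed C57BL/6 and 129Sv background. The libraries were taken by their titles, 6 of 9 in the series. The remaining 3, from heterozygotes (Blinc1+/-), enter only the closing observations and 1 alternative fit. Genes with 1 FPKM or more in 3 or more of these 6 libraries entered the test, where FPKM (fragments per kilobase per unit of depth) is a level corrected for gene length and library depth. The filter kept 13125 of 23235 gene symbols. The labels do not describe how the Blinc1 allele was made, and they leave unsaid whether each library is an embryo of its own, so the p-values speak only of the spread between these samples, which may be technical. Within a group, values are given for replicates 1, 2 and 3 in that sequence.

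Blinc1 is a long noncoding RNA gene that lies beside Nkx2-2 and is transcribed in islet cells. Nkx2-2 encodes a homeodomain transcription factor that directs endocrine progenitors, which start from the factor Neurog3, toward insulin-producing beta cells and away from other hormone fates. At this stage most of the organ is acinar tissue that has begun to make digestive enzymes. The dissected pancreas also holds trunk and duct epithelium, endocrine cells, mesenchyme, vessels, nerves and blood. In such bulk samples, fewer cells of a type and less RNA per cell cannot be told apart.

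The knockout libraries held 19532984 to 25437255 fragments and the wild types 21482203 to 24204452, as implied by the deposited confidence bounds, and rank correlations between the 6 libraries (Spearman, over tested genes) were 0.9787 to 0.9919. The genotype could not be read from the targeted gene, so whether each library carries its labelled genotype, or libraries were exchanged, was not tested, and every knockout mean rests on the labels. Nkx2-2as, the noncoding RNA next to Nkx2-2, was at 0.00937 to 0.0479 FPKM in knockouts and 0.0206 to 0.142 FPKM in wild types. The acinar gene Cpa1, a carboxypeptidase, was at 7457 to 11632 FPKM in knockouts and 7898 to 8604 FPKM in wild types, while the intestinal factor Cdx2 was at 0.0590 to 0.0990 FPKM in knockouts and 0.0430 to 0.25 FPKM in wild types. Knockout replicate 1 stood apart from the other knockouts at many genes and lay with the wild types there, so each knockout library is given separately and results are also given without it. Sex differed between the groups. Xist, which silences an X chromosome in female cells, was at 34.98, 37.3 and 40.2 FPKM in knockouts, against 0.0608, 0.0469 and 38.2 FPKM in wild types, and the Y-linked gene Ddx3y showed the opposite order, so all 3 knockouts and only wild-type replicate 3 were female. Differences within female libraries, knockouts against wild-type replicate 3 alone, are therefore given beside some of the main results. They are not given for the remaining genes and lists. Among these are Nkx2-2, Sst and Pla2g1b, and the islet factor, progenitor, granule, beta cell, acinar and nerve lists. Sex and genotype are not set apart there.

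Cyp2c70 was the only gene to pass the test (limma on log2(FPKM + 1), Benjamini-Hochberg adjusted p under 0.05), which is 0.00762% of the genes tested. This gene (mm9 chromosome 19, 40227851 to 40261776, minus strand, protein coding) encodes a cytochrome P450 known in mouse liver for making muricholic bile acids. It was at 0.895, 1.06 and 0.669 FPKM in the knockout libraries and at 8.42, 9.51 and 12.2 FPKM in the wild types. Every knockout library lay far below every wild type, and replicate 1 did not stand apart. Cyp2c70 fell to 0.875 ± 0.198 FPKM in knockouts, against 10.05 ± 1.95 FPKM in wild types (SD, n = 3 each), a level 8.71% of wild type, with a log2 difference of -2.55 (SE 0.15, limma adjusted p = 0.0034). These values rest on 21.00 to 442 implied fragments per library. Without knockout replicate 1 the difference was -2.56 (limma adjusted p = 0.0034). Within females it was -2.82 (limma adjusted p = 0.46), in a fit whose wild-type arm is 1 library, assumed to vary like the knockouts, so its missed call says little. The gene missed the threshold with all 9 libraries in the fit (adjusted p = 0.57), with the replicate number as a block (adjusted p = 0.36) and in voom on implied fragments (adjusted p = 0.051). Over all 21 alternatives its limma adjusted p ranged from 0.000308 to 0.569, and 17 of them called it.

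The promoters of Cyp2c70 and of Sst and Pla2g1b, which are described below, are shown because Cyp2c70 passed the test and Pla2g1b and Sst had the largest higher differences called without knockout replicate 1. Each window runs from 250 bases before to 50 after the gene start, 5′ to 3′ on the gene's strand, from RefSeq on GRCm38.p6, a different build from the mm9 of the expression files. Capitals mark matches, on either strand, to TNAAGTG (the NK2 factor core), CAAAGTCCA (the HNF4 element) or TGACGTCA (the cyclic AMP response element).
Cyp2c70: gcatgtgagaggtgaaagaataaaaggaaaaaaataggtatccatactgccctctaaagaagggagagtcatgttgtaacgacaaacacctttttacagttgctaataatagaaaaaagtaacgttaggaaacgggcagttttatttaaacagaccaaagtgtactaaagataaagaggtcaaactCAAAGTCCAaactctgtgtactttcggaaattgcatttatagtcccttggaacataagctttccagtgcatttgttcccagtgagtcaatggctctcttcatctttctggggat
Pla2g1b: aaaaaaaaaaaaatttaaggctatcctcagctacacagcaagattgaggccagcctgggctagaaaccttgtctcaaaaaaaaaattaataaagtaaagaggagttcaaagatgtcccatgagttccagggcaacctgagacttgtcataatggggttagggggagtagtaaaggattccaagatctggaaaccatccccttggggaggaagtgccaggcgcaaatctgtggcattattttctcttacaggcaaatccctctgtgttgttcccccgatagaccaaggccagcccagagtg
Sst: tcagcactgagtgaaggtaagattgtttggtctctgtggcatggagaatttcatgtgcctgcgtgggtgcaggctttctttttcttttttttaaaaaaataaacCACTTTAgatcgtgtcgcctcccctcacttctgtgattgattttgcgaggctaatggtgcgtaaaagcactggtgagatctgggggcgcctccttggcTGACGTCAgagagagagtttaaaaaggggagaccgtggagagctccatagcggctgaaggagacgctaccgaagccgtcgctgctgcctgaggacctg
The Cyp2c70 window (chr19:40187237-40187536) held CAAAGTCCA from base -64, a match found in 0.475% of 32851 promoter windows of the same length. The Sst window (chr16:23890795-23891094) held TGACGTCA from base -48, present in 1.79% of windows, and TNAAGTG on the opposite strand at base -146, present in 11.5%. The Pla2g1b window (chr5:115465892-115466191) held no match to these 3 motifs. The matches in capitals did not overlap each other. CANNTG (the E-box, in 72.3% of windows) and TATAAA (the TATA box, in 13.6%) were searched as well and are left in lower case.

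Beyond Cyp2c70, the knockout and wild-type groups were separate at many genes, and none of them passed the test. All 3 knockout libraries lay above all 3 wild types at 602 genes (4.59% of those tested) and below them at 871 (6.64%). After median-ratio scaling, which moves the median difference of all genes from -0.03 to -0.00054, the counts were 831 and 818. An unadjusted p under 0.05 was reached by 285 genes higher (2.17%) and 666 lower (5.07%), 951 in all (7.25%). These shares are the background for the counts in the gene lists below. A mean difference of 1 or more on the log2 scale was seen at 12 genes higher and 12 lower (0.0914% each).

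Among separated genes with a higher level in knockouts, those with the smallest p included several of metabolism and signalling. Rbks, the gene of ribokinase, was at 9.29, 9.78 and 9.89 FPKM in knockouts and 6.17, 6.59 and 6.41 FPKM in wild types. Pim3, a serine/threonine kinase gene, was at 53.8, 56.6 and 56.6 FPKM in knockouts and 45.02, 42.9 and 46.1 FPKM in wild types. Lgals2, encoding galectin-2, was at 20.5, 21.8 and 21.3 FPKM in knockouts and 15.1, 15.4 and 16.4 FPKM in wild types. At each of the 3 genes the knockout replicates sat close together. Brsk2, a kinase gene of brain and pancreas, was at 7.12, 6.69 and 6.75 FPKM in knockouts and 4.42, 4.89 and 4.78 FPKM in wild types. Mboat2, a lysophospholipid acyltransferase gene, was at 22.00, 20.2 and 19.6 FPKM in knockouts and 15.4, 14.9 and 15.48 FPKM in wild types. Insig1, which holds back sterol synthesis, was at 88.5, 119.7 and 99.6 FPKM in knockouts and 67.8, 75.4 and 79.6 FPKM in wild types. The log2 differences of these 6 genes were 0.53 (SE 0.07) for Rbks, 0.31 (SE 0.05) for Pim3, 0.42 for Lgals2, 0.46 for Brsk2, 0.41 for Mboat2 and 0.45 for Insig1, with limma adjusted p = 0.40 for Rbks and 0.64 for the rest. Within females they were 0.52, 0.27, 0.35, 0.44, 0.39 and 0.35 in that sequence. Rint1, a gene of vesicle tethering at the endoplasmic reticulum, had a wider spread, at 18.2, 29.7 and 21.7 FPKM in knockouts and 13.2, 12.5 and 12.1 FPKM in wild types (log2 difference 0.81, SE 0.16).

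Genes on the lower side with the smallest p included immune, vascular and mesodermal genes. Lst1, a leukocyte gene of the major histocompatibility region, was at 7.29, 7.35 and 6.13 FPKM in knockouts and 12.4, 12.8 and 11.8 FPKM in wild types (log2 difference -0.75, SE 0.09, limma adjusted p = 0.23). Pros1, encoding the anticoagulant protein S, was at 10.8, 9.43 and 9.92 FPKM in knockouts and 13.5, 13.8 and 13.1 FPKM in wild types. At both genes every knockout library was below every wild type. Ccl21a, a chemokine of lymphatic vessels and lymphoid stroma, was at 46.6, 32.6 and 24.3 FPKM in knockouts and 81.4, 83.2 and 65.2 FPKM in wild types (log2 difference -1.17, SE 0.21). Mouse has near-identical Ccl21 copies, so its level is uncertain. Meox1, a homeobox gene of mesoderm, was at 4.12, 3.72 and 4.44 FPKM in knockouts and 5.54, 6.37 and 5.85 FPKM in wild types. S100a6, a calcium-binding protein gene, was at 93.6, 86.2 and 110.0 FPKM in knockouts and 129.8, 137 and 125 FPKM in wild types. Blvrb, encoding biliverdin reductase B, was at 22.7, 23.7 and 24.1 FPKM in knockouts and 29.9, 34.97 and 29.7 FPKM in wild types. The groups were separate at these 3 genes too, with log2 differences of -0.44 for Meox1, -0.44 for S100a6 and -0.41 for Blvrb. Tdh, threonine dehydrogenase, was at 26.9, 18.6 and 22.7 FPKM in knockouts and 32.9, 33.9 and 33.8 FPKM in wild types (log2 difference -0.56, SE 0.12). Within females the differences were -0.69 for Lst1, -0.35 for Pros1, -0.95 for Ccl21a, -0.43 for Meox1, -0.37 for S100a6, -0.33 for Blvrb and -0.57 for Tdh.

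**Figure D1:**
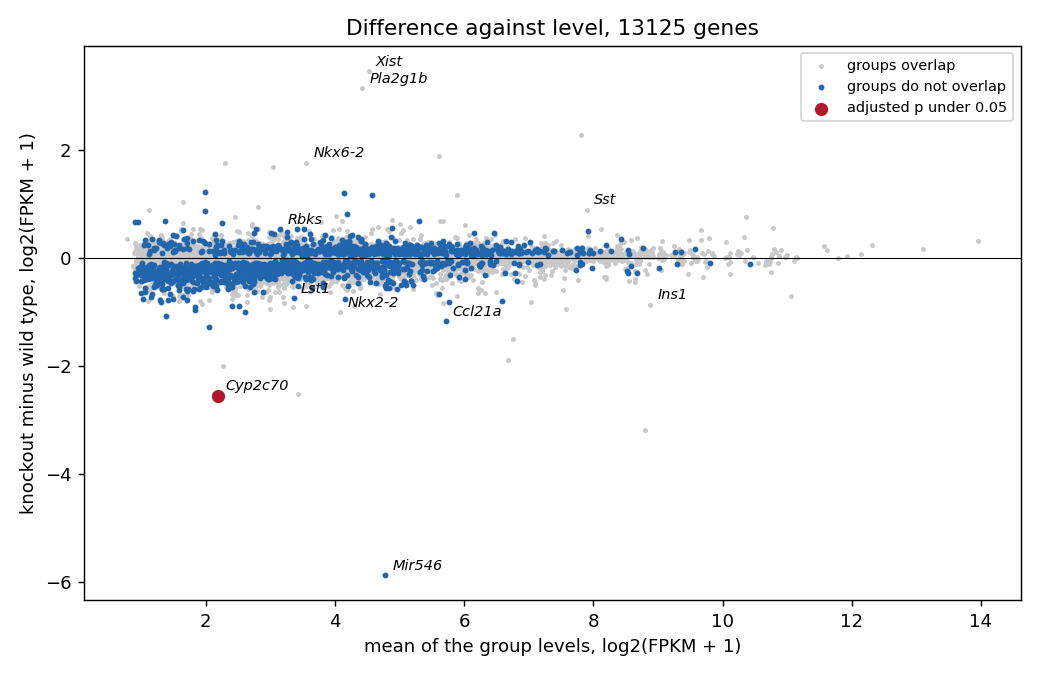
Each point is a gene, with the mean level of the 2 groups on the x axis and the difference, knockout minus wild type, on the y axis, both on the log2(FPKM + 1) scale. Cyp2c70, in red, is the gene with an adjusted p under 0.05, and blue points, whose groups do not overlap, lie mostly within a narrow band near 0.

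The knockout libraries differed widely among themselves. Knockout replicate 1 lay above all wild types at 3260 genes (24.8%) and below them at 2164 (16.5%). Knockout replicate 2 lay above at 2662 (20.3%) and below at 6082 (46.3%), and replicate 3 above at 3027 (23.1%) and below at 4530 (34.5%). Replicates 2 and 3 thus leaned to lower values and replicate 1 did not. With median-ratio scaling the counts above and below were 2804 and 2700 in replicate 1 and 4416 and 4549 in replicate 2. In replicate 3 they were 3895 and 3978. The scaling itself sets this near-equal split by centring each library. The lean was thus seen in FPKM as deposited only. These counts cannot tell where it comes from, which was not tested. The median size of the log2 difference from the wild-type mean was 0.0704 in replicate 1, 0.144 in replicate 2 and 0.107 in replicate 3. Replicates 2 and 3 were together above all wild types with replicate 1 inside their range at 819 genes (6.24%), and together below at 1919 (14.6%).

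**Figure D2:**
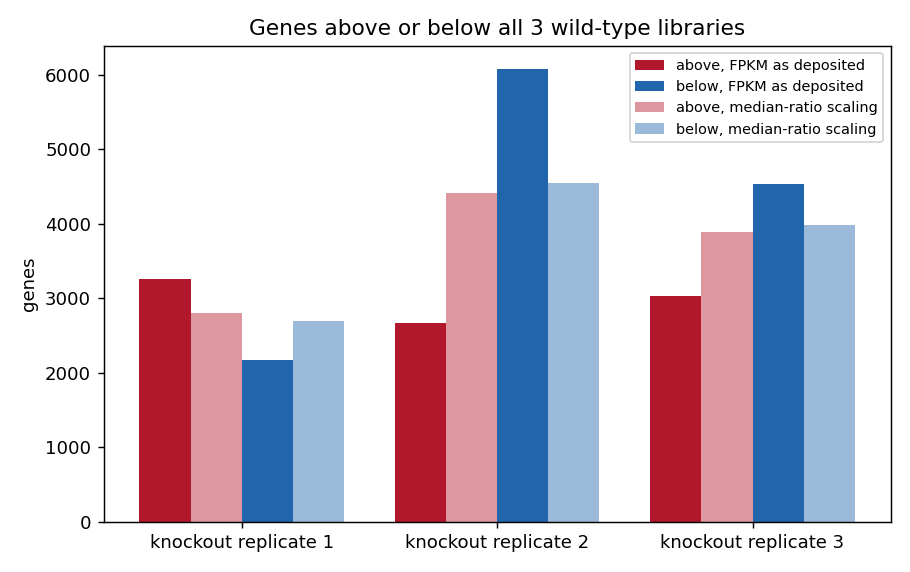
Bars count the tested genes at which a knockout library lies above (red) or below (blue) all 3 wild-type libraries, with FPKM as deposited (dark) and after median-ratio scaling (pale). Replicate 2 has 6082 genes below as deposited and 4549 after scaling.

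Without knockout replicate 1, in a comparison of 2 libraries with 3 singled out after the values were seen, limma called 5 genes higher (0.0381% of those tested) and 20 lower (0.152%), 0.19% in all. Their adjusted p-values were 0.0012 to 0.047. Pla2g1b, pancreatic phospholipase A2, which digests dietary phospholipid, was at 1.81, 162 and 129.7 FPKM in knockouts and 5.54, 2.35 and 3.09 FPKM in wild types. Sst, the hormone of delta cells, was at 151, 422 and 455 FPKM in knockouts and 152, 155 and 191 FPKM in wild types. Mgst1, a membrane glutathione transferase, was at 217, 377 and 417 FPKM in knockouts and 215, 203 and 258 FPKM in wild types. At all 3 genes replicates 2 and 3 were above every wild type and replicate 1 was below the highest wild type. Their log2 differences in that fit were 5.03 (SE 0.25), 1.40 (SE 0.11) and 0.82 (SE 0.11). Eif3j and Rint1 were the other genes called higher, Eif3j at 13.7, 44.7 and 45.9 FPKM in knockouts and 22.9, 20.3 and 19.6 FPKM in wild types from 10.04 to 34.4 implied fragments.

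The 20 genes called lower without knockout replicate 1 included genes of the extracellular matrix and of growth factor signalling. Mfap4, a microfibril protein of elastic fibres, was at 92.6, 47.7 and 52.3 FPKM in knockouts and 99.4, 106 and 85.6 FPKM in wild types. Tgfbi, a matrix adhesion protein induced by TGF-beta, was at 18.8, 10.2 and 9.85 FPKM in knockouts and 20.1, 24.9 and 20.4 FPKM in wild types. Mmp11, a matrix metalloproteinase of stroma, was at 12.8, 7.22 and 7.95 FPKM in knockouts and 13.3, 13.3 and 12.7 FPKM in wild types. In each case replicates 2 and 3 were low together, and replicate 1 was close to or within the wild-type range. Col9a2, a collagen IX chain, was at 20.3, 12.8 and 12.9 FPKM in knockouts and 21.1, 20.04 and 20.97 FPKM in wild types. Pdgfrl, a gene related to the PDGF receptors, was at 7.52, 3.75 and 4.29 FPKM in knockouts and 8.61, 8.94 and 7.50 FPKM in wild types. Cntfr, the receptor subunit for ciliary neurotrophic factor, was at 23.9, 11.97 and 14.2 FPKM in knockouts and 21.98, 25.2 and 24.6 FPKM in wild types. Enpp2, which makes lysophosphatidic acid, was at 17.7, 9.99 and 9.84 FPKM in knockouts and 14.9, 16.6 and 16.4 FPKM in wild types. Their log2 differences without replicate 1 were -0.94 for Mfap4, -1.04 for Tgfbi, -0.72 for Mmp11, -0.65 for Col9a2, -0.90 for Pdgfrl, -0.83 for Cntfr and -0.64 for Enpp2. Prnp, the prion protein gene, was at 51.4, 32.4 and 28.8 FPKM in knockouts and 48.2, 57.7 and 50.2 FPKM in wild types, and Pf4, platelet factor 4, was at 28.5, 18.6 and 19.2 FPKM in knockouts and 34.6, 30.3 and 30.2 FPKM in wild types. The remaining genes called lower were Cyp2c70, Ccl21a, Cacng7, Fibin, Nkx2-2, Lst1, Hist1h2bj, Gm11627, Paqr6, Tdh and Fmo1. All these names were chosen after the values were seen, apart from those that earlier rules named.

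Nkx2-2 itself (mm9 chromosome 2, 147003282 to 147012138, minus strand) was at 24.9, 6.08 and 5.48 FPKM in knockouts and 15.2, 21.7 and 25.5 FPKM in wild types. Replicates 2 and 3 were below all wild types and replicate 1 lay within their range. The log2 difference was -1.01 (SE 0.50, limma adjusted p = 0.64) over all 3 knockouts and -1.66 (SE 0.19, limma adjusted p = 0.033) without replicate 1. Another NK homeobox gene, Nkx6-2, was at 1.87, 33.7 and 37.5 FPKM in knockouts and 8.79, 1.64 and 2.86 FPKM in wild types, so replicates 2 and 3 were again apart from replicate 1, here on the high side (log2 difference 1.76, SE 0.99, limma adjusted p = 0.64). Tm4sf4, a tetraspanin-like membrane protein gene, was at 43.3, 113 and 87.9 FPKM in knockouts and 51.6, 41.9 and 55.6 FPKM in wild types. Anxa13, an epithelial annexin gene, was at 24.1, 51.7 and 43.5 FPKM in knockouts and 24.3, 20.8 and 28.1 FPKM in wild types. At both genes replicates 2 and 3 were above all wild types and replicate 1 was inside their range.

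**Figure D3:**
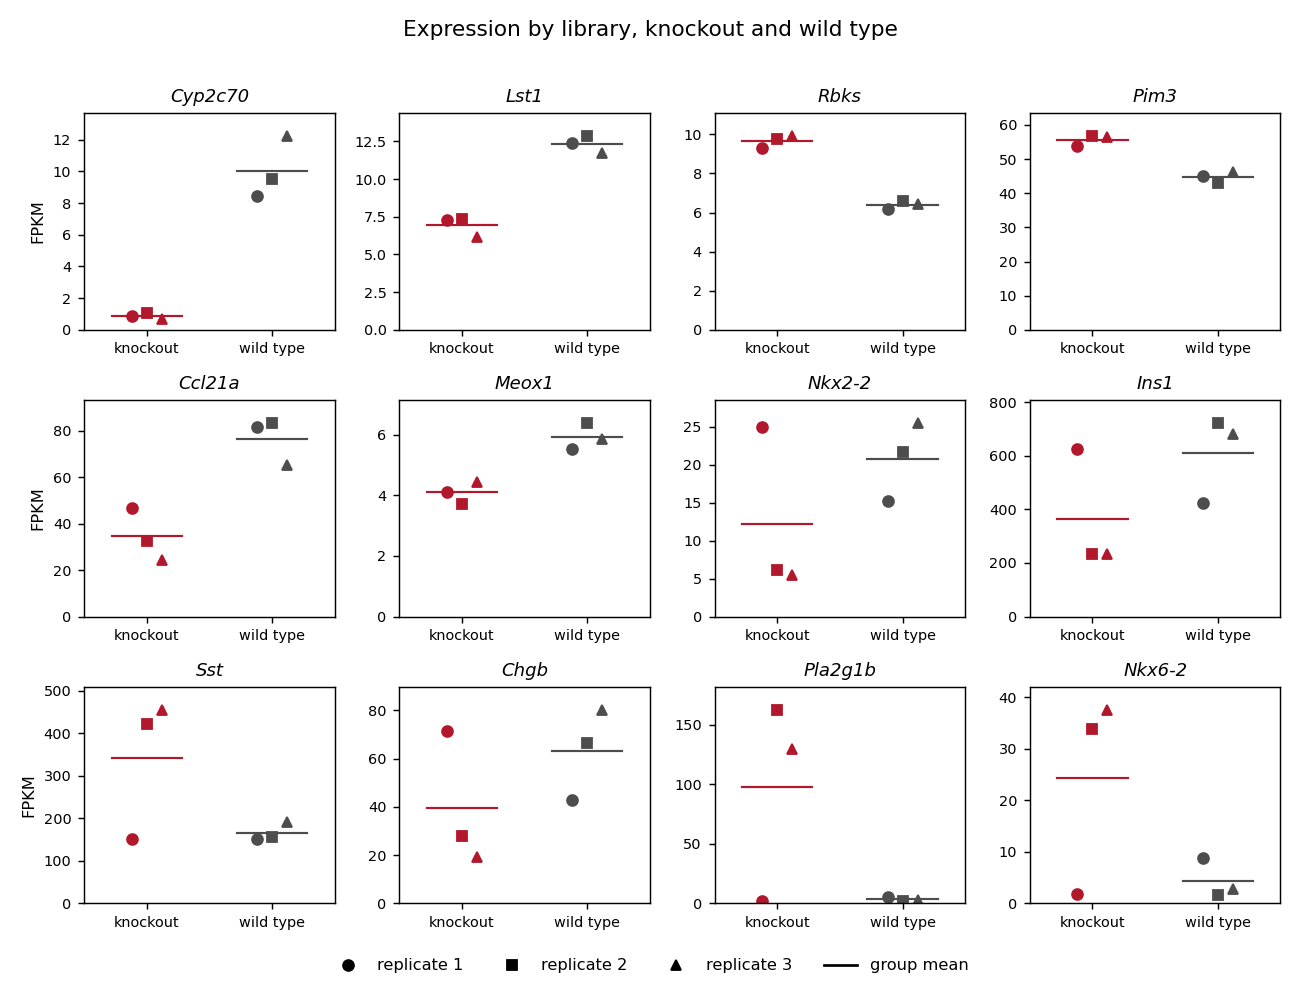
Points are FPKM in each library (circle, square and triangle for replicates 1, 2 and 3), lines are group means, and each panel has its own linear axis from 0. In the upper row and at Ccl21a and Meox1 all knockouts are on the same side of the wild types, whereas at Nkx2-2, Ins1, Sst, Chgb, Pla2g1b and Nkx6-2 replicate 1 sits within or close to the wild types and apart from replicates 2 and 3.

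Of the 8 islet hormone genes, 6 had a lower and 2 a higher mean in knockouts, against 58.5% of all tested genes with a lower mean, and 0 passed limma (2 had an unadjusted p under 0.05). The beta cell hormones were lower in replicates 2 and 3. Ins2 was at 2524, 1390.1 and 1191 FPKM in knockouts and 2049.8, 3007 and 2918 FPKM in wild types, and Ins1 was at 627, 235 and 233 FPKM in knockouts and 422, 722 and 683 FPKM in wild types. Iapp, the amyloid peptide released with insulin, was at 425, 305 and 293 FPKM in knockouts and 383, 515 and 495 FPKM in wild types. Replicate 1 was inside the wild-type range at all 3 genes. Gcg of alpha cells was at 905, 822 and 712 FPKM in knockouts and 801, 899 and 1039 FPKM in wild types. Ghrl of epsilon cells was at 176, 91.6 and 78.4 FPKM in knockouts and 116, 141 and 220.0 FPKM in wild types. Ppy of PP cells was at 20.97, 63.3 and 65.1 FPKM in knockouts and 40.3, 29.4 and 39.6 FPKM in wild types, and for this gene the knockout replicates lay on both sides of the wild types. The log2 differences were -0.70 for Ins2 (SE 0.28), -0.87 for Ins1, -0.45 for Iapp, -0.17 for Gcg, -0.50 for Ghrl and 0.29 for Ppy. Within females they were -0.86, -1.07, -0.56, -0.36, -1.02 and 0.16.

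Of 24 islet transcription factor genes tested (Foxa1 was too low), 18 had a lower mean in knockouts and 0 passed limma (unadjusted p under 0.05 at 1 higher and 1 lower), with a median log2 difference of -0.15 against -0.03 for all tested genes. By library the median was 0.05 in replicate 1, -0.28 in replicate 2 and -0.31 in replicate 3. Pou3f4, an alpha cell factor, was at 1.52, 0.813 and 0.593 FPKM in knockouts and 1.72, 1.68 and 1.87 FPKM in wild types. Replicates 2 and 3 were the lowest, and all 3 knockouts were below all wild types. These levels are near the filter of 1 FPKM and rest on 11 to 40 implied fragments per library, so the small gap at replicate 1 is uncertain. Foxa2, a forkhead factor of endoderm that lies 0.86 Mb from Nkx2-2, had the opposite order, at 32.8, 35.5 and 35.2 FPKM in knockouts and 29.3, 29.1 and 31.99 FPKM in wild types.

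Endocrine progenitor genes were lower in mean at 11 of 14 tested (0 past limma, 1 at an unadjusted p under 0.05), with a median log2 difference of -0.18. Cck, a peptide gene of early endocrine cells, was at 7.80, 4.39 and 4.86 FPKM in knockouts and 7.48, 7.72 and 9.81 FPKM in wild types, and Neurog3 was at 68.6, 41.3 and 44.4 FPKM in knockouts and 52.4, 55.8 and 73.4 FPKM in wild types. Of the secretory granule genes 19 of 21 had a lower mean (0 past limma, 2 at an unadjusted p under 0.05), with medians of 0.16 in replicate 1, -0.43 in replicate 2 and -0.63 in replicate 3. Replicate 2 was below every wild type at 19 of these 21 genes and replicate 3 at 20, replicate 1 at 1. For all tested genes the shares below every wild type were those given above, 46.3% in replicate 2 and 34.5% in replicate 3. The granins Chga and Chgb, cargo of hormone granules, showed this split: Chgb was at 71.6, 27.7 and 19.3 FPKM in knockouts and 43.01, 66.5 and 80.2 FPKM in wild types. Syt13, a synaptotagmin of endocrine cells, was at 26.2, 17.5 and 15.6 FPKM in knockouts and 23.5, 25.8 and 28.1 FPKM in wild types. Cpe, which trims prohormones, went the other way, at 199.8, 238 and 231 FPKM in knockouts and 221, 212 and 201 FPKM in wild types.

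In the beta cell list 10 of 14 tested genes had a lower mean (0 past limma, 4 lower and 2 higher at an unadjusted p under 0.05), with a median of -0.45. Of all tested genes, 5.07% were lower and 2.17% higher at that limma threshold. G6pc2, a glucose-6-phosphatase of beta cells, was at 7.66, 3.38 and 3.37 FPKM in knockouts and 6.72, 10.3 and 7.58 FPKM in wild types. Kcnj11, a subunit of the ATP-sensitive potassium channel, was at 17.5, 20.4 and 21.6 FPKM in knockouts and 16.8, 14.3 and 17.6 FPKM in wild types. Ero1lb, an oxidase of insulin folding, was at 39.4, 46.02 and 37.4 FPKM in knockouts and 36.8, 32.9 and 34.2 FPKM in wild types. G6pc2 was low in the same replicates as insulin, while Kcnj11 and Ero1lb had higher means in knockouts. All 8 alpha cell genes had a lower mean (0 past limma, 2 at an unadjusted p under 0.05), with a median of -0.20, which was -0.41 within females. Of 6 delta, epsilon and PP cell genes 4 had a higher mean (0 past limma and 0 at an unadjusted p under 0.05), with a median of 0.04.

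All 6 acinar transcription factor genes had a higher mean in knockouts, where 41.5% of all tested genes did (0 past limma, 2 at an unadjusted p under 0.05), with a median log2 difference of 0.26. All 6 were above every wild type in replicates 2 and 3, and 0 were in replicate 1. Of all tested genes 24.8%, 20.3% and 23.1% were in replicates 1, 2 and 3. Gata4, a zinc finger factor of endoderm and acinar cells, was at 58.6, 69.4 and 67.2 FPKM in knockouts and 57.6, 45.4 and 59.03 FPKM in wild types, and Ptf1a, the main acinar regulator, was at 85.2, 118 and 103 FPKM in knockouts and 74.4, 67.6 and 85.3 FPKM in wild types. Of 29 acinar secreted protein genes 21 had a higher mean (0 past limma, 0 at an unadjusted p under 0.05), and the median differed between replicates, at -0.07 in replicate 1, 0.58 in replicate 2 and 0.04 in replicate 3. Without replicate 2 the median over both others was 0.00, against 0.17 with all 3 and 0.33 without replicate 1. Cela1, an elastase, was at 1366, 3106 and 2087 FPKM in knockouts and 1530.3, 1366 and 1364 FPKM in wild types. Clps, the colipase, was at 12218, 23337 and 18120 FPKM in knockouts and 13018, 13728 and 15475 FPKM in wild types. Both had their highest value in replicate 2. Rnase1 and Zg16 (a zymogen granule lectin) instead stood out in replicate 3, with Rnase1 at 433, 478 and 133 FPKM in knockouts and 185, 521 and 478 FPKM in wild types, and Zg16 at 57.4, 66.2 and 22.9 FPKM in knockouts and 37.6, 75.6 and 47.7 FPKM in wild types. Ctrb1, Pnliprp1, Amy2a5 and Amy2a2 had no estimate in replicate 2 (and Ctrb1 none in replicate 3), where the files mark too much data for an estimate, and were not tested. Amy2a5 and Amy2a2 overlapped between the groups in the libraries with a value. Ctrb1 was at 48638 FPKM in knockout replicate 1 and 50327 to 53410 FPKM in wild types, and Pnliprp1 at 21620 FPKM (replicate 1) and 23047 FPKM (replicate 3) among knockouts and 21635 to 22003 FPKM in wild types.

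**Figure D4:**
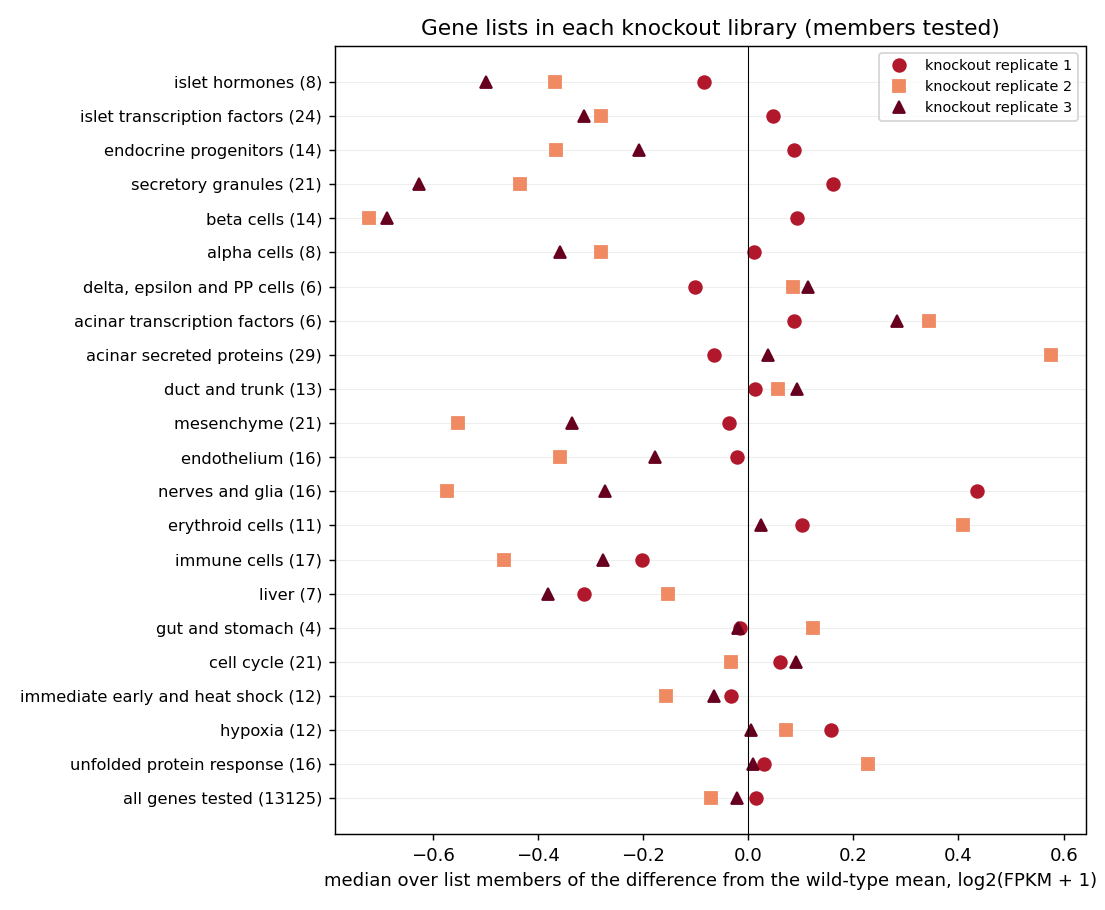
Each row is a gene list (members tested in brackets), and each point is the median over its members of the difference between a knockout library and the wild-type mean, on the log2(FPKM + 1) scale. The granule, beta cell and alpha cell lists lie between 0.01 and 0.16 in replicate 1 and below 0 in replicates 2 and 3, and nerves and glia lie on opposite sides, at 0.44 in replicate 1 and -0.57 in replicate 2.

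Among genes of supporting tissue none passed the test, and means were on the lower side, as they were at 58.5% of all tested genes. All 21 mesenchyme genes had a lower mean (0 past limma, 6 at an unadjusted p under 0.05, 3 with separate groups), with a median log2 difference of -0.31 against -0.03 for all genes, and 20 of 21 did after median-ratio scaling. Of all tested genes, 5.07% were lower at an unadjusted limma p under 0.05. Groups were separate and lower at 6.64% of all tested genes, so 3 of 21 is a small number to read from. The median was -0.04 in replicate 1, -0.55 in replicate 2 and -0.34 in replicate 3, against -0.45 without replicate 1 and -0.11 within females. Tcf21, a mesenchymal bHLH factor, was at 20.2, 10.4 and 14.2 FPKM in knockouts and 25.8, 23.7 and 19.3 FPKM in wild types, and Eln, elastin, named as a gene of replicates 2 and 3, was at 161, 65.3 and 75.6 FPKM in knockouts and 154, 229 and 126 FPKM in wild types. Summed over the list, the level was 2287, 1577 and 1776 FPKM in knockouts and 2344, 2699.8 and 1988 FPKM in wild types. Replicates 2 and 3 were below all wild types in this sum, and wild-type replicate 3 was the lowest wild type. All 16 endothelial genes had a lower mean (0 past limma, 3 at an unadjusted p under 0.05, 3 with separate groups), with a median of -0.18, which was -0.27 without knockout replicate 1 and -0.11 within females. Erg, an ETS factor of endothelium, was at 4.09, 3.57 and 4.35 FPKM in knockouts and 5.14, 5.88 and 4.48 FPKM in wild types.

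All 17 immune cell genes had a lower mean (0 past limma, 8 at an unadjusted p under 0.05, 5 with separate groups), with a median log2 difference of -0.35. Of all tested genes, 58.5% had a lower mean. The shares lower at an unadjusted limma p under 0.05 and lower with separate groups were 5.07% and 6.64%. The median was -0.20 in replicate 1, -0.46 in replicate 2 and -0.28 in replicate 3, and -0.40 without replicate 1. Within females it was -0.13. C1qc, a complement gene of macrophages, was at 25.2, 20.4 and 21.8 FPKM in knockouts and 32.00, 36.9 and 26.6 FPKM in wild types. Lyz2, a lysozyme of myeloid cells, was at 39.8, 38.5 and 55.4 FPKM in knockouts and 60.8, 71.2 and 45.02 FPKM in wild types. C1qc was separate between the groups and Lyz2 was not. With 1 female wild type, sex and genotype cannot be told apart further in these lists.

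Nerve and glia genes split the knockouts. Of 16 tested, 8 had a higher and 8 a lower mean (0 past limma, 1 in each direction at an unadjusted p under 0.05). Replicate 1 was above every wild type at 13 of 16 genes (24.8% of all tested genes were), replicate 2 below at 13 (46.3% of all) and replicate 3 below at 11 (34.5% of all). Stmn2, a tubulin-binding protein of growing neurons, was at 82.5, 22.7 and 23.1 FPKM in knockouts and 48.9, 65.2 and 37.9 FPKM in wild types. Ednrb, the endothelin receptor of neural crest, was at 14.6, 8.99 and 10.9 FPKM in knockouts and 16.3, 17.3 and 12.1 FPKM in wild types. Stmn3, a relative of Stmn2, was at 21.00, 4.14 and 3.52 FPKM in knockouts and 3.95, 8.52 and 3.50 FPKM in wild types, so replicate 1 was by far the highest. Ret, the GDNF receptor, differed from the other nerve genes, at 21.5, 24.4 and 22.5 FPKM in knockouts and 16.5, 16.3 and 20.5 FPKM in wild types, with separate groups.

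Lists of other tissues and of cell state differed in size. Duct and trunk genes had a higher mean at 8 of 13 (0 past limma, 1 at an unadjusted p under 0.05), with a median of 0.06, which was -0.11 within females. Erythroid genes had a higher mean at 8 of 11 (0 past limma, 1 at an unadjusted p under 0.05), with medians of 0.10, 0.41 and 0.02 in knockout replicates 1, 2 and 3. Liver genes had a lower mean at 6 of 7 (0 past limma, 1 at an unadjusted p under 0.05). Their summed level was 54.4, 74.6 and 61.7 FPKM in knockouts and 58.1, 137 and 58.8 FPKM in wild types, with wild-type replicate 2 the highest, and the median of -0.52 was 0.01 within females. Gut and stomach genes (4 tested of 11) had a median of 0.01, and the spleen factor Tlx1, the only spleen gene tested, was at 2.05, 1.25 and 1.08 FPKM in knockouts and 2.48, 1.82 and 1.94 FPKM in wild types (log2 difference -0.34, SE 0.17). Unfolded protein response genes had a higher mean at 15 of 16 and hypoxia genes at 10 of 12, with small medians of 0.09 and 0.07. Of these genes 0 passed limma, and 0 and 2 had an unadjusted p under 0.05. The knockout libraries differed. In replicates 1, 2 and 3 the medians were 0.03, 0.23 and 0.009 for the first list and 0.16, 0.07 and 0.006 for the second. Above the wild-type mean in those replicates were 12, 15 and 8 of 16 genes in the first list. In the second they were 12, 8 and 6 of 12. Herpud1, of endoplasmic reticulum degradation, was at 125, 162 and 139 FPKM in knockouts and 127, 119 and 124 FPKM in wild types, and Egln3, an oxygen-sensing prolyl hydroxylase, was at 23.04, 21.4 and 21.5 FPKM in knockouts and 19.9, 18.1 and 19.98 FPKM in wild types. Cell cycle genes had a higher mean at 14 of 21 as deposited and at 20 of 21 after scaling, with medians of 0.04 and 0.07. Of them 0 passed limma and 0 had an unadjusted p under 0.05. As deposited, the medians were 0.06, -0.03 and 0.09 in knockout replicates 1, 2 and 3. Above the wild-type mean were 16, 6 and 17 of the 21 genes, so replicate 2 went the other way. Immediate early and heat shock genes had a lower mean at 8 of 12 (0 past limma, 1 at an unadjusted p under 0.05), with a median of -0.06.

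Genes on chromosome 2 near the targeted locus were read for effects beside Nkx2-2. Within 1 Mb of Nkx2-2 there were 6 tested genes, of which 0 passed limma and 2 had separate groups, Foxa2 (higher, log2 difference 0.19, SE 0.06) and the centrosome protein gene Plk1s1 (lower, -0.19, SE 0.07). Plk1s1 was at 15.3, 15.7 and 14.8 FPKM in knockouts and 17.97, 16.4 and 18.3 FPKM in wild types. Within 5 Mb, 5 of 52 genes had separate groups (9.62%) and within 10 Mb, 16 of 131 (12.2%), where all tested genes gave 11.2%. The share on whole chromosomes ran from 8.38% on chromosome 15 to 13.4% on chromosome 6, and chromosome 2 had 10.7%. Chromosome 2 was thus near the background, and Nkx2-2 had the largest difference within 10 Mb.

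**Figure D5:**
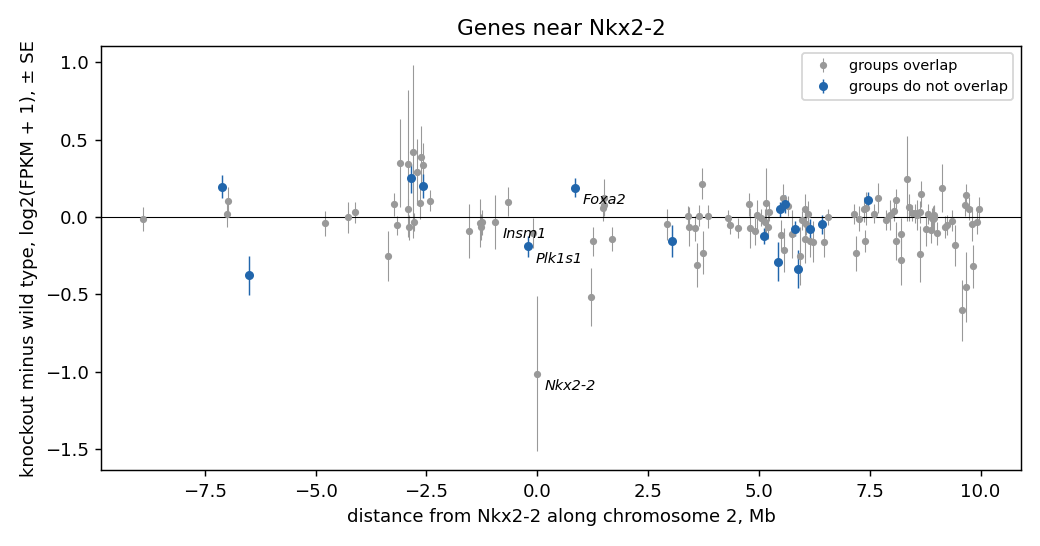
Each point is a tested gene within 10 Mb of Nkx2-2, placed by its distance along chromosome 2, with the difference, knockout minus wild type, and its SE on the log2(FPKM + 1) scale. Blue marks the 16 genes whose groups do not overlap, and Nkx2-2 is the lowest point at -1.01 with a wide SE of 0.50.

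X-linked genes are given because the groups differed in sex. All 5 genes of the X inactivation and escape list had a higher mean in knockouts (0 past limma, 4 at an unadjusted p under 0.05). Eif2s3x, which escapes inactivation, was at 73.04, 77.5 and 78.7 FPKM in knockouts and 49.9, 49.95 and 73.3 FPKM in wild types, with the female wild type at the level of the knockouts. Its log2 difference was 0.42 over all libraries and 0.06 within females. Over the whole chromosome 12.4% of 442 genes had separate groups (41 lower and 14 higher). All tested genes gave 11.2% (871 lower and 602 higher), and whole chromosomes ran from 8.38% to 13.4%. The share on the X chromosome was thus near the background.

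Each knockout library also had genes of its own, with both other knockouts inside the wild-type range: 447 higher (3.41%) and 266 lower (2.03%) in replicate 1, 514 (3.92%) and 1203 (9.17%) in replicate 2, and 550 (4.19%) and 418 (3.18%) in replicate 3. In replicate 1 these included Acp6, a lysophosphatidic acid phosphatase gene, at 21.3, 13.2 and 14.2 FPKM in knockouts and 12.9, 13.1 and 14.8 FPKM in wild types, and Usmg5, a small subunit of ATP synthase, at 12.2, 20.9 and 20.5 FPKM in knockouts and 20.9, 19.4 and 28.4 FPKM in wild types. In replicate 2, Cd74, the invariant chain of antigen-presenting cells, was at 23.4, 12.2 and 23.7 FPKM in knockouts and 33.7, 37.7 and 22.6 FPKM in wild types, and Gabbr1, a GABA receptor subunit, was at 21.7, 7.18 and 16.3 FPKM in knockouts and 21.5, 24.2 and 14.6 FPKM in wild types. In replicate 3, the neutrophil gene S100a9 was at 16.8, 15.03 and 26.4 FPKM in knockouts and 19.9, 16.4 and 4.15 FPKM in wild types. For such genes a difference rests on 1 library.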

How the data were processed

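Whole pancreas was dissected at E15.5 and total RNA with an RNA integrity number above 8 was made into TruSeq libraries, per the labels' protocols. CASAVA 1.8.2, TopHat and Cufflinks on mm9 are named in the submitters' processing notes. Gene annotation: not given in the sources used here, and likewise the strand setting. The deposited values are FPKM per gene locus with confidence bounds, per the file headers. Values marked HIDATA were set missing, loci of 1 symbol were summed, and genes with at least 1 FPKM in 3 of 6 libraries were kept.

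The comparison used limma 3.58.1 in R 4.3.3 on log2(FPKM + 1) with an intensity trend, genotype as the only term and Benjamini-Hochberg adjustment at 0.05. Fold differences on this scale understate the change of low genes. FPKM are not counts, so fragments were implied from the confidence bounds and used only for depth and for 1 alternative (voom). Start coordinates were raised by 1 base to count from 1. The method was run on simulated data with changes planted in genes of below-median spread. That simulation held no sex or library effects, so it does not test how the method behaves under them.

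The members and gene lists were chosen with earlier results of these data known. Named genes were those within 1 Mb of Nkx2-2, any gene past the test, separated genes with the smallest p or largest difference, list members with the smallest p or highest level, and genes beyond the wild types in 1 knockout library or in replicates 2 and 3. Alternatives changed the libraries, pseudocount, filter, scaling, weights, block, sex term and replicates. Same-numbered libraries did not deviate together (correlations -0.197, -0.141 and 0.0955), so numbers were not taken as pairs.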

Additional observations from a re-analysis of the deposited data

Results flagged for a closer look

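Pla2g1b and Nkx6-2 stood out in heterozygote replicate 1, a library used above only in the fit of all 9 libraries. Pla2g1b was at 122 FPKM in heterozygote replicate 1, against 8.29 and 5.66 FPKM in heterozygote replicates 2 and 3 and 2.35 to 5.54 FPKM in wild types. Nkx6-2 was at 40.1 FPKM in heterozygote replicate 1, against 12.3 and 9.66 FPKM in heterozygote replicates 2 and 3 and 1.64 to 8.79 FPKM in wild types. Both values are near those of knockout replicates 2 and 3 and far from knockout replicate 1, which had 1.81 FPKM of Pla2g1b and 1.87 FPKM of Nkx6-2.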

How the results depend on the processing

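Against 1 gene called by limma, 0 were called with all 9 libraries, in female libraries, with the replicate block (736 at an unadjusted p under 0.05) and in voom, and 3 with array weights. Knockout replicates 1, 2 and 3 alone gave 3, 118 and 4. Leaving out 1 library gave 1 to 25, namely 25 when knockout replicate 1 was dropped, 2 when wild-type replicate 2 was and 3 when wild-type replicate 3 was. The 951 genes at an unadjusted p under 0.05 became 3720 with array weights, 216 in female libraries, 304 with sex as a covariate, 367 and 2661 with knockout replicate 1 or 2 alone, and 343 (wild-type replicate 2 dropped) to 2673 (knockout replicate 1 dropped) over the fits lacking 1 library. Median-ratio scaling put 4416 genes above all wild types in knockout replicate 2, against 2662. The array weights, which set how much each library counts, were 0.41, 0.51 and 6.20 in knockout replicates 1, 2 and 3. In wild-type replicates 1, 2 and 3 they were 1.24, 0.86 and 0.72. The cause of the shifts in these counts was not tested. The log2 difference changed sign for Xist in female libraries and with the sex term (-0.028 in both) and for Stmn3 with array weights (-0.24). Over the fits lacking 1 library it ran from -0.31 (knockout replicate 1 dropped) to 0.83 for Stmn3, from -0.72 to 0.34 for Rnase1 and from -0.49 to 0.26 for Zg16, the high ends of the last pair with knockout replicate 3 dropped; dropping wild-type replicate 2 gave 0.022 and 0.067. With 3 libraries a group and 1 female wild type, small differences could not be detected.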

Other observations

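Cyp2c70 was at 0.159, 9.41 and 11.1 FPKM in heterozygote replicates 1, 2 and 3, so replicate 1 was below every knockout and the others were in the wild-type range. Nkx2-2 was at 6.37, 19.0 and 13.4 FPKM and Sst at 375, 201 and 174 FPKM in the same libraries. For Cyp2c70 knockout replicate 1 was with the other knockouts, and for Nkx2-2 and Sst it was with or near the wild types. An exchange of libraries is possible and was not tested. At Pla2g1b, Nkx6-2, Nkx2-2 and Sst, picked after the values were seen, heterozygote replicate 1 was near knockout replicates 2 and 3. Knockout replicate 1 was near the wild types there. At Cyp2c70 knockout replicate 1 and heterozygote replicate 1 were both low. At some other genes called without knockout replicate 1, heterozygote replicate 2 was instead near knockout replicates 2 and 3. Mfap4 was at 101, 46.3 and 92.5 FPKM in heterozygote replicates 1, 2 and 3, and Prnp at 47.5, 30.5 and 47.1 FPKM. The labels were used as given, and the knockout means and the fit without knockout replicate 1 hold only as far as they do.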
